A study of Mus musculus with 5 samples.

Results

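The 10 genes described here encode the core of TGF-beta signalling outside the cell and at its surface. They are the ligand genes Tgfb1, Tgfb2 and Tgfb3, the receptor genes Tgfbr1, Tgfbr2 and Tgfbr3, the latent TGF-beta binding protein genes Ltbp1, Ltbp2 and Ltbp3, and Tgfbi, which encodes a matrix protein named for its induction by TGF-beta. Members were chosen by gene symbol, as every probe set annotated to one of these symbols and no other. That gave 27 of the 34945 probe sets with a single symbol, and 10 of the 18193 genes those probe sets represent. The cells were primary rib chondrocytes of FVB mouse embryos at gestational day 18.5, plated on gelatin and kept in serum-containing medium with ascorbic acid and beta-glycerophosphate, both of which every culture received. RNA was taken on days 2, 6, 9, 12 and 15 of culture, with 1 array on each day and no untreated or freshly isolated sample among the 5 arrays. The labels do not say how many embryos went into a dish, or whether the dishes came from a common isolate.

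TGF-beta ligands are secreted in a latent form, folded into their own propeptide, and latent TGF-beta binding proteins tie that complex to fibrillin microfibrils of the matrix until it is released. Free ligand is bound by the type II receptor, which phosphorylates the type I receptor, and the type I receptor in turn phosphorylates Smad2 and Smad3, which enter the nucleus with Smad4. The type III receptor, betaglycan, has no kinase and presents ligand, above all TGF-beta2, to the type II receptor. In cartilage the pathway is known for promoting early chondrogenesis and for holding back hypertrophic maturation.

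Values are MAS5 probe-set intensities on a linear scale, with every array scaled to a trimmed mean of 500 before deposit. Differences were taken on the log2 scale after every intensity under a floor of 73.1 (the 40th percentile of the whole table) had been raised to it. A gene is represented by its brightest probe set unless another is named, and a gene counts as measured when the mean of that probe set over the 5 arrays reached 105.93, the median of the probe sets. All 10 members were measured, as 10 of 11075 genes, and 22 of their 27 probe sets passed the same filter on their own. Those 22 reached the floor on each of the 5 days. Because levels depend on the probes, the intensity of one probe set cannot be set against that of another. With 1 array on a day there is no replicate error, and a difference between days has no test. As a guide, the SD of a log2 difference between days 15 and 2 from 1 probe set was 0.55, from 5158 genes with at least 2 measured probe sets, a spread that leaves out variation between arrays and dishes.

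The arrays had median intensities between 106 and 118, and the floor was reached by between 58.8% and 61.9% of probe sets. All 7 chondrocyte markers were measured. The summed intensity of these markers was 128288, 111764, 66291, 29870 and 42088 on days 2, 6, 9, 12 and 15. At day 15, 6 of the 7 were at least 2-fold lower than at day 2 and 1, Matn1, was higher, with 745 on day 15 against 213 on day 2. Osteoblast markers, 4 of 5 of which had a probe set, summed to 41925 on day 15, against 462 on day 2, and fibroblast markers, also 4 of 5, to 75292 on day 15, against 831 on day 2. Adipocyte markers, again 4 of 5, were highest at 56128 on day 12, against 417 on day 2. Such sums are weighted towards their brightest probe sets. On day 15 Ibsp alone had 35026 among the osteoblast markers. Col1a1 had 36146 and Col3a1 38737 among the fibroblast markers, while Dpt had 395 and Pi16 stayed below the floor on every day. Macrophages and platelets are known carriers of Tgfb1. The macrophage markers, 5 of 8 of which passed the filter, summed to between 669 on day 9 and 1618 on day 2, with C1qa below the floor on every day, and the platelet and megakaryocyte markers, 3 of 4 of which passed, to between 407 on day 12 and 822 on day 2. No endothelial marker passed (0 of 6), and Pecam1 and Tek stayed below the floor on every day. These shifts run alongside the differences between days given below, their part in them was not tested, and in bulk RNA fewer cells of a type and less RNA per cell cannot be told apart.

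At day 15 the type III receptor gene Tgfbr3 and the latent binder gene Ltbp2 stood more than 5-fold above day 2, the ligand gene Tgfb3 and the type II receptor gene Tgfbr2 more than 2-fold above it, and no member was at least 2-fold lower. That is 4 of 10 members above day 2 by 2-fold and 0 below it. Over all measured genes, 16.2% passed 2-fold upwards and 11.6% downwards. The median log2 difference of the 10 members was 0.75, against 0 over all measured genes. The list is short and was not tested as a list. In a linear trend on day fitted across all genes with limma, 0 of 10 members passed an adjusted p of 0.05 in either direction. Rising trends passed in 6 of 11075 genes (0.0542%) and falling trends in 0 (0%). Without adjustment, 3 members had a limma trend p under 0.05 (Tgfb3, Tgfbr3 and Ltbp2, all with positive slopes), beside 27.1% of all measured genes in either direction.

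**Figure D1:**
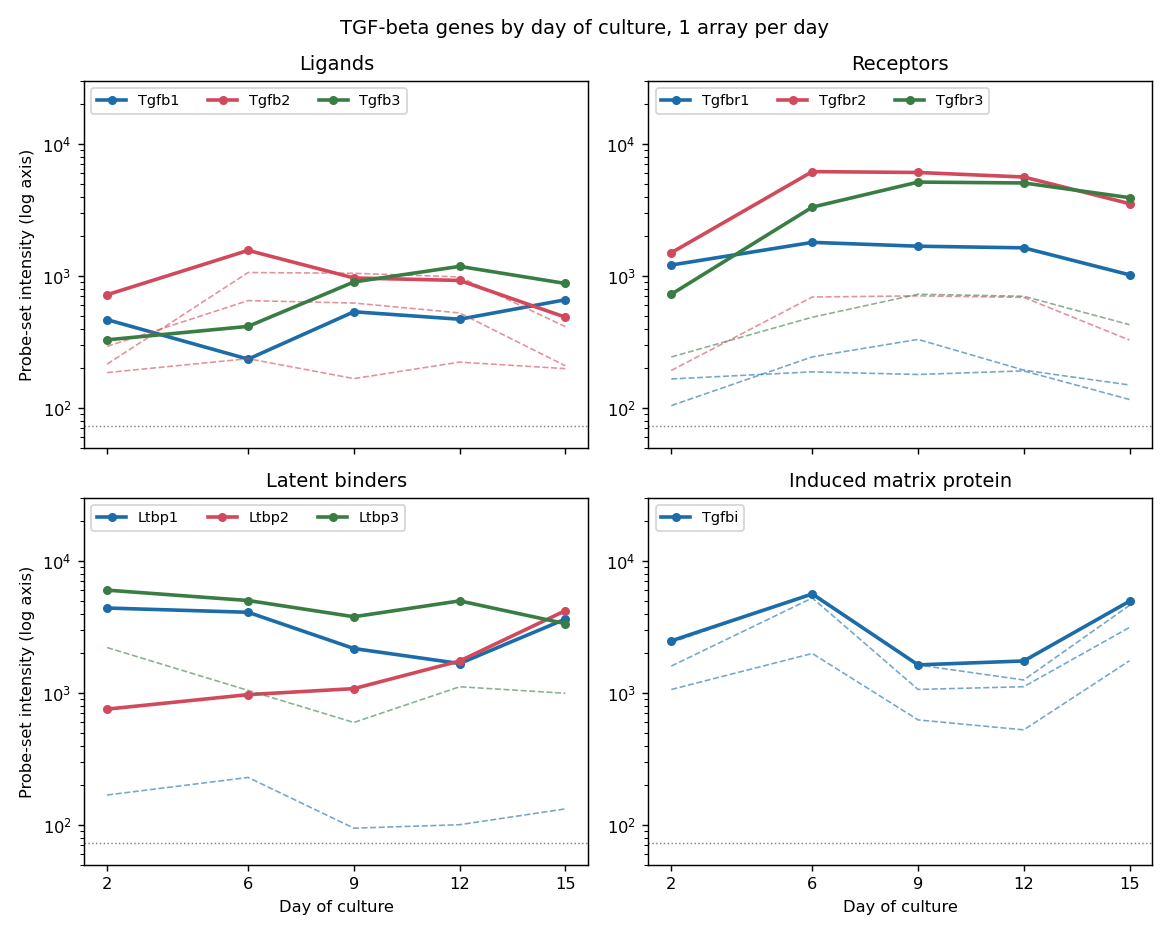
Probe-set intensity (vertical axis, log scale) against day of culture, 1 array per day, for ligands, receptors, latent binders and Tgfbi. Solid lines with points are the brightest probe set of each gene, dashed lines its other probe sets that passed the filter, and the dotted line is the floor of 73.1. Tgfbr2 and Tgfbr3 climb between days 2 and 6, Ltbp2 is highest on day 15, and all 4 Tgfbi probe sets are low on days 9 and 12.

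The 3 ligand genes followed 3 different courses. Tgfb1, the most widely expressed ligand gene, had intensities of 467, 235, 536, 471 and 661 on days 2, 6, 9, 12 and 15. It was lowest on day 6, 1.99-fold below day 2, and highest on day 15, 1.42-fold above day 2 (log2 0.50), which is within the 0.55 spread of a single probe set. Its only other probe set did not pass the filter. The limma adjusted p of its trend was 0.43.

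Tgfb2 encodes the ligand that depends most on betaglycan. By its brightest probe set it had 721, 1564, 967, 926 and 487 on the 5 days in order. The day 6 value was 2.17-fold above day 2, and the day 15 value 3.21-fold below day 6. Day 15 was lower than every other day, 1.48-fold below day 2. The 4 probe sets of Tgfb2 disagreed on the end points: the log2 differences of day 15 from day 2 were -0.57, 0.94, -0.49 and 0.10 from the brightest to the dimmest. They were closer on the shape, since in 3 of the 4 the intensities on days 6, 9 and 12 all lay above those of both day 2 and day 15. The second brightest had 215, 1063, 1049, 985 and 414, a 4.94-fold higher value on day 6 than on day 2. Because the probe sets split in sign, no direction is given for Tgfb2 between days 15 and 2.

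Tgfb3, the third ligand gene, has a single probe set. It had 328, 415, 902, 1183 and 878 on days 2, 6, 9, 12 and 15. The main step lay between days 6 and 9, where day 9 was 2.17-fold above day 6, and every later value stayed above both early ones. Day 15 was 2.67-fold above day 2 (log2 1.42), and the day 12 peak 3.60-fold above it. Its trend slope was 0.137 ± 0.038 log2 units per day (SE, 5 arrays), with a limma adjusted p of 0.103. The SE of a slope, here and below, comes from departures from a straight line, moderated by limma, and is not replicate error.

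Among receptor genes, by their brightest probe sets, the type I receptor stayed within 2-fold over the course, while the type II and type III receptors were more than 4-fold above day 2 on day 6. Tgfbr1, the type I receptor kinase also called ALK5, had 1211, 1799, 1682, 1635 and 1021 on the 5 days. By this probe set its highest day was 1.76-fold above its lowest, the smallest range among the brightest probe sets of the members, and day 15 was 1.19-fold below day 2. A second probe set had 104, 244, 331, 194 and 149, a wider 3.17-fold range with its peak on day 9, and the third ranged 1.65-fold. The log2 differences of day 15 from day 2 in these were 0.52 and -0.52, so they differed in sign. In all 3 of its probe sets the middle days lay above both ends.

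Tgfbr2, the ligand-binding receptor kinase, had 1501, 6179, 6087, 5624 and 3533. Day 6 was 4.12-fold above day 2, the values of days 6, 9 and 12 lay close together, and day 15 was 1.75-fold below day 6. Day 15 remained 2.35-fold above day 2 (log2 1.24). The second probe set, with 193, 693, 707, 689 and 327, had the same shape with a smaller difference between the ends (log2 0.76), under 2-fold. The direction thus depends on the day taken as the start, higher at day 15 against day 2 and lower against day 6. The adjusted p of the limma trend was 0.456.

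Tgfbr3, betaglycan, had 728, 3325, 5147, 5069 and 3924. Day 2 was lower than every later day, day 6 was 4.57-fold above it, and day 9, the highest, 7.07-fold above it, the widest range of any member. Day 15 was 5.39-fold above day 2 (log2 2.43). The second probe set had 244, 487, 728, 703 and 428, also lowest on day 2, but only 2.00-fold above it on day 6 and 1.76-fold above it on day 15 (log2 0.81). The trend slope was 0.180 ± 0.064 log2 units per day (SE, 5 arrays), with a limma adjusted p of 0.152.

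**Figure D2:**
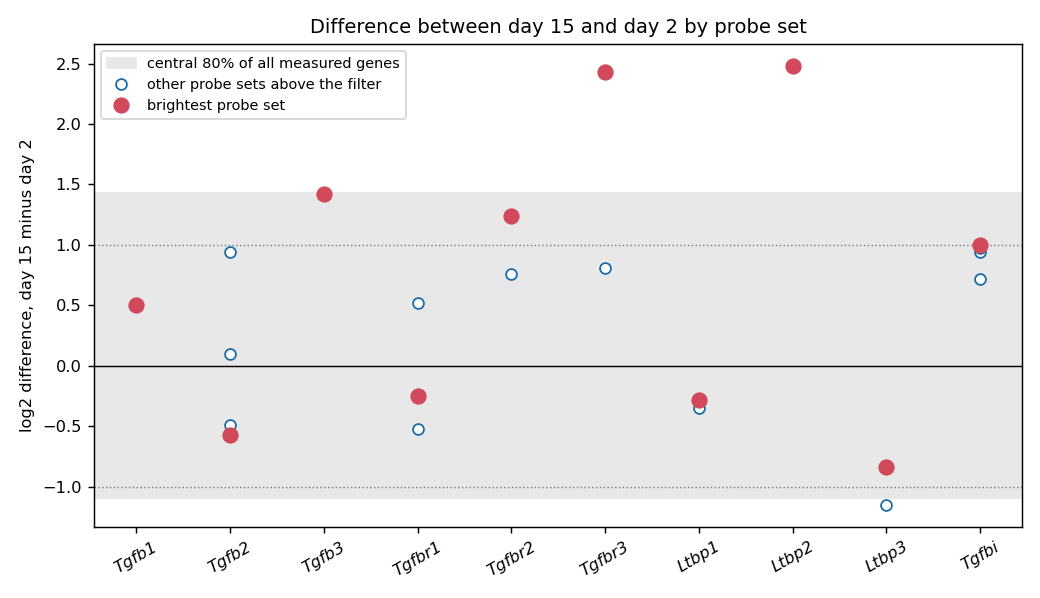
Difference between day 15 and day 2 in log2 units (vertical axis) for each member, with the brightest probe set filled and the other probe sets above the filter open. The grey band holds the central 80% of all measured genes and dotted lines mark 2-fold. Tgfbr3 and Ltbp2 lie above the band at 2.43 and 2.48, while the 4 probe sets of Tgfb2 spread from -0.57 to 0.94.

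The latent binder genes diverged. Ltbp1, whose product anchors latent TGF-beta to the matrix, had 4406, 4091, 2174, 1674 and 3635 on days 2, 6, 9, 12 and 15. Day 12 was 2.63-fold below day 2, and day 15 was 2.17-fold above day 12, which left it 1.21-fold below day 2 (log2 -0.28). Its second probe set, with 169, 229, 94.7, 101 and 133, was also lowest on days 9 and 12. The third did not pass the filter.

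Ltbp2 had 756, 973, 1080, 1749 and 4208. It encodes a binder that sits on fibrillin microfibrils and, unlike its relatives, does not bind latent TGF-beta. It was the only one of the 10 members that was higher at each step between sampled days, a course shared by 4.21% of all measured genes. The step from day 12 to day 15 was the largest, 2.41-fold, and day 15 was 5.57-fold above day 2 (log2 2.48). The slope was 0.178 ± 0.036 log2 units per day (SE, 5 arrays). Its limma adjusted p of 0.0768 was the lowest among the members. Ltbp2 has a single probe set, so no second reading of the gene exists on these arrays.

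Ltbp3, a binder of latent TGF-beta known for its part in skeletal growth, had 6020, 5022, 3785, 4992 and 3354. Day 15 was the lowest, 1.79-fold below day 2, the highest (log2 -0.84). The probe set carries the suffix s, which on this platform marks probes shared between transcripts. The second brightest, with 2211, 1047, 599, 1116 and 996, was 2.22-fold lower at day 15 than at day 2 (log2 -1.15), and was the only member probe set at least 2-fold lower among the 22 that passed the filter. Over these 22, 4 were at least 2-fold higher, beside 14.9% of 19801 probe sets in that direction and 12.1% in the other.

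Tgfbi, a secreted protein that binds collagens and integrins, had 2 high points and a low stretch between them. By the brightest probe set it had 2487, 5629, 1635, 1750 and 4964. Day 6 was 2.26-fold above day 2, day 9 was 3.44-fold below day 6, and day 15 was 2.84-fold above day 12. At 1.996-fold above day 2, day 15 lay just under the 2-fold threshold. All 4 Tgfbi probe sets had days 9 and 12 below the other 3 days, and their log2 differences between days 15 and 2 ran from 0.72 to 1.00. The brightest carries the suffix x, which marks probes that may also bind other transcripts, but the probe set with a plain suffix had 1064, 1995, 626, 526 and 1758, the same order of high and low days apart from days 9 and 12. The limma trend of Tgfbi, a straight line through a course with 2 peaks, had an adjusted p of 0.936.

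Read by step, 4, 3, 0 and 3 members differed at least 2-fold at the 4 steps in order. Between days 2 and 6, 4 of 10 members were at least 2-fold higher on day 6 (Tgfb2, Tgfbr2, Tgfbr3 and Tgfbi), beside 10.2% of all measured genes, and 0 were 2-fold lower, beside 5.70%. Between days 6 and 9, Tgfb1 and Tgfb3 were at least 2-fold higher on day 9 (5.87% of all genes) and Tgfbi at least 2-fold lower (4.06%). No member differed 2-fold between days 9 and 12, a step at which 1.72% of all genes were higher and 1.51% lower. Between days 12 and 15, Ltbp1, Ltbp2 and Tgfbi were at least 2-fold higher on day 15 (4.23% of all genes) and 0 were 2-fold lower (3.92%). At that last step 6 members were lower on day 15 than on day 12, by 1.29-fold to 1.90-fold: all 3 receptor genes, Tgfb2, Tgfb3 and Ltbp3. The median log2 difference at this step was -0.40 over the members and -0.01 over all measured genes. The share of all genes lower by any amount was not counted, so the 6 are not read as a result about the members. The counts at consecutive steps share arrays and are not independent of each other.

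**Figure D3:**
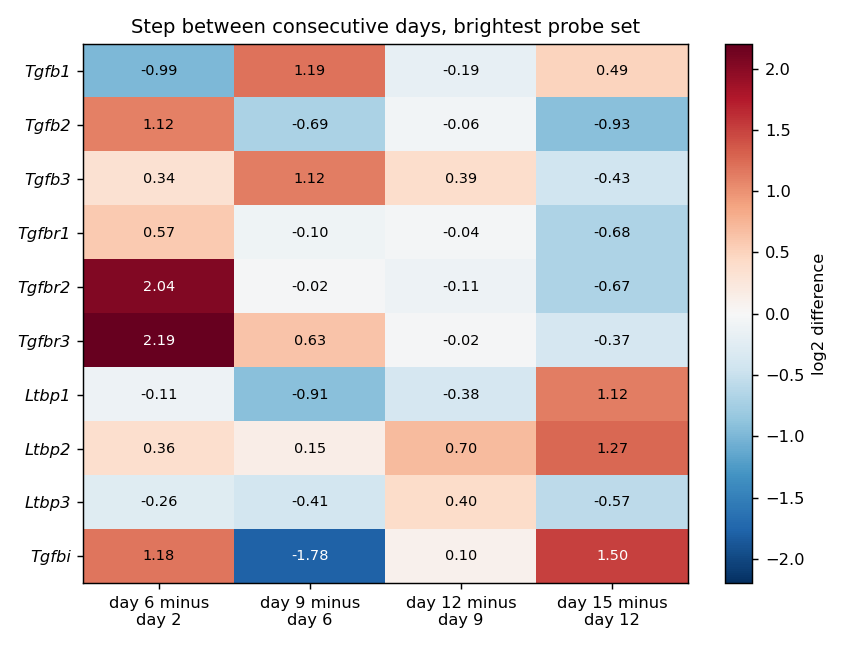
Log2 difference between each sampled day and the one before it (columns) for the brightest probe set of each member (rows), with red for higher on the later day and blue for lower. Tgfbr2 and Tgfbr3 have their largest value, 2.04 and 2.19, at day 6 minus day 2, and Tgfbi alternates between 1.18, -1.78, 0.10 and 1.50.

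Some members shared a course, though in counts too small to be read as a result about the list. Tgfb2, Tgfbr1 and Tgfbr2 had days 6, 9 and 12 all above both day 2 and day 15, 3 of 10 members, where 12.5% of measured genes had that shape. Ltbp1 and Tgfbi had days 9 and 12 both below the other 3 days, 2 of 10 members, near the 13.8% of measured genes with that shape. After each course was centred on its own mean, Tgfb2 and Tgfbr1 were the closest pair of the 45, with a root mean square distance of 0.28 log2 units over the 5 arrays. Only brightest probe sets entered this distance, which was not scaled for range, and Tgfbr1 had the smallest range among the members. Tgfbr2 and Tgfbr3 were 0.46 apart and Ltbp1 and Tgfbi 0.50, while Tgfbr3 and Ltbp1, 1.48 apart, were the most unlike. Highest and lowest days differed at least 2-fold in 8 of 10 members, beside 46.6% of measured genes. They differed at least 4-fold in 3 (Tgfbr2, Tgfbr3 and Ltbp2), beside 11.7%.

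For the members with the widest range, the most similar courses outside the family were also looked up by that distance over the 5 arrays. Tgfbr3 was closest to Marcks, which encodes an actin-binding substrate of protein kinase C, at 0.04. Marcks had 3693, 17607, 25816, 27017 and 21137 on the 5 days, so it too was lowest on day 2 and highest in the middle of the course. Fam214a at 0.09 and Fcgrt, a receptor gene for immunoglobulin G, at 0.12 came next. Tgfbr2 was closest to Sirt4 at 0.08, then to Hlcs and Adcy9, both at 0.14. Ltbp2 was closest to Tent5c at 0.16, Tekt2 at 0.17 and Meox1, a homeobox gene, at 0.18, but each of those 3 was above the floor on only 3 of 5 days. Over 5 points such likeness is common: 424 genes lay within 0.5 log2 units of Tgfbr3, 882 of Tgfbr2 and 275 of Ltbp2.

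Start-site sequence was available in a RefSeq table (GRCm38.p6) for 8 of the 10 members. Tgfb3 and Tgfbr3 had no entry there. The 250 bases before the start are printed for Tgfb2, Tgfbr1 and Tgfbr2, whose middle days lay above both ends, and for Ltbp2, the member higher at each step. Capitals mark matches, on either strand, to GGGCGG (the GC box, read as CCGCCC on the other strand), TATAAA (the TATA box), CAGACA (a Smad-binding CAGA box) or TGACGTCA (the cyclic AMP response element, its own reverse complement).
Tgfb2 (chr1:186705990-186706239, minus strand): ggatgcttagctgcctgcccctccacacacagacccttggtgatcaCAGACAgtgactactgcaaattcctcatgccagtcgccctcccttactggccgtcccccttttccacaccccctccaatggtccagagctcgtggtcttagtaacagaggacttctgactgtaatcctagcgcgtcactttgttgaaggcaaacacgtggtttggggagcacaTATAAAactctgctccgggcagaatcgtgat
Tgfbr1 (chr4:47352972-47353221, plus strand): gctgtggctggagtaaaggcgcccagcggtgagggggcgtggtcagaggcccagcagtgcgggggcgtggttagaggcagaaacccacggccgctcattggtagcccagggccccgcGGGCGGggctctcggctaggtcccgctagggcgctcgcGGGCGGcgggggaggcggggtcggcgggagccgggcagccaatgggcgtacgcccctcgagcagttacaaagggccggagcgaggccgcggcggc
Tgfbr2 (chr9:116175364-116175613, minus strand): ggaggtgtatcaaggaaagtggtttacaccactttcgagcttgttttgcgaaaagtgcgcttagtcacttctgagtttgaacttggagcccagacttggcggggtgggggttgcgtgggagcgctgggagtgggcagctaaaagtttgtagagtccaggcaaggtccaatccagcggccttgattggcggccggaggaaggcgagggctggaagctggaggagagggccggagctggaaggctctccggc
Ltbp2 (chr12:84876492-84876741, minus strand): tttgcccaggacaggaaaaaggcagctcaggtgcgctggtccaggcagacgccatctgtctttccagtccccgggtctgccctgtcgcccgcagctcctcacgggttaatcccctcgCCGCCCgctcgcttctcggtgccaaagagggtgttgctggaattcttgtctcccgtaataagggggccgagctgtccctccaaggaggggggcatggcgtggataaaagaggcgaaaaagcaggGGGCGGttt

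No motif searched was found in all 3 windows printed for the shared course. The Tgfb2 window held a TATA box whose first base lay 31 bases before the start, and a CAGA box 204 bases before it. The Tgfbr1 window had 2 GC boxes and 29 CpG dinucleotides, while a second start of Tgfbr1 in the table, not printed, had a CAGA box 203 bases before it. The Tgfbr2 window had 12 CpG dinucleotides and no match (0 of the 4 motifs). The Ltbp2 window had 2 GC boxes and 16 CpG dinucleotides, where the median over all 32851 windows in the table was 6. Among the 10 windows of the 8 members, 4 held a GC box, 1 a TATA box, 3 a CAGA box and 1, the first start of Ltbp1, a TGACGTCA element 73 bases before the start. Over all windows the shares with a match were 32.7%, 12.4%, 17.1% and 1.55% in the same order. These are matches of letters and describe the windows only.

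In the list of genes that hold latent TGF-beta or release it, 5 of 12 measured genes stood 2-fold or more above day 2 on day 15 and 0 stood 2-fold below it, beside the 16.2% and 11.6% of all genes. The list's median log2 difference was 0.72. Itgb8, the beta chain of an integrin that activates latent TGF-beta, had 82.8, 246, 520, 579 and 643 on the 5 days. It was 7.76-fold higher at day 15 than at day 2. Fbn2, a fibrillin gene of the microfibrils to which latent binders attach, was 4.99-fold higher and already had 3470 on day 6, against 479 on day 2. The matrix metalloproteinase genes Mmp14 and Mmp2 were 3.74-fold and 3.73-fold higher, and Tgm2, the crosslinking transglutaminase, 3.30-fold, although its other probe sets ranged from -0.73 to 2.45 on the log2 scale. Bmp1, a procollagen proteinase that also cleaves latent binders, stood 1.78-fold above day 2 by its brightest probe set and had a log2 difference of -0.23 by another. Of the 17 genes listed, 3 did not pass the filter and 2 had no probe set annotated to them alone. The list's trends passed in 0 of 12 (limma), with 3 at an unadjusted p under 0.05 (25.0%, beside 27.1% of all genes).

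Of 11 measured receptor partners and extracellular binders, day 15 exceeded day 2 by 2-fold in 6 and fell short of it by 2-fold in 1, beside the 16.2% and 11.6% of all genes, and the median was 1.14. The proteoglycan genes Dcn, Fmod, Bgn and Aspn, whose products can bind TGF-beta, were among the higher ones. Aspn had the largest difference of the list, with 111 on day 2 and 13661 on day 15, 123-fold higher. Decorin had 1002, 6454, 10302, 8324 and 7698 on the 5 days, 7.68-fold higher at day 15 than at day 2. Fmod was 7.13-fold and Bgn 2.48-fold higher. Acvrl1, an alternative type I receptor gene known from endothelium, had 246 on day 15 and was below the floor on day 2, at least 3.36-fold higher on day 15. The endothelial markers, none of which passed the filter, summed to 379 on day 2, 203 on day 12 and 356 on day 15. Which cells carried Acvrl1 was not tested. Cd109, a membrane co-receptor that restrains TGF-beta signalling, was the lower one, 4.50-fold below day 2, and already at 1323 on day 6, against 7378 on day 2. No trend passed in the list (0 of 11, limma), with 6 at an unadjusted p under 0.05 (54.5%, beside 27.1% of all genes).

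Inside the cell the differences were smaller. Of 16 measured transducers and inhibitors, 13 were within 2-fold at day 15, 1 lay above that range and 2 below it, and the median was -0.34. The 2 lower of 16 are close to the 11.6% of all genes, and the 1 higher is under the 16.2%. Smad4, the shared partner of the receptor-activated Smads, was 2.03-fold above day 2 by the brightest probe set, and its other probe sets had log2 differences of 0.13 to 0.36. Smad2 was 1.48-fold lower and Smad3 1.52-fold higher, and for each gene another probe set had the opposite sign. Smad7, the inhibitory Smad that TGF-beta itself induces, had 1010, 558, 307, 350 and 265, 3.81-fold lower at day 15 than at day 2, but -0.07 on the log2 scale by its second probe set. Tgfbrap1, a receptor-associated adaptor gene, was 2.05-fold lower, but -0.13 on the log2 scale by its other measured probe set. Map3k7, the TAK1 kinase gene, was 1.99-fold lower, and its other measured probe sets ran from -1.51 to 0.12. Smurf1, a ubiquitin ligase gene, was 1.59-fold lower. The repressor gene Skil was 1.58-fold lower, with -1.77 by its other measured probe set. Trends passed in 0 of 16 genes (limma), with 5 at an unadjusted p under 0.05 (31.2%, beside 27.1% of all genes).

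Genes known to respond to TGF-beta in other cells went both ways. Of 17 measured, 7 passed 2-fold upwards at day 15 and 3 downwards, beside the 16.2% and 11.6% of all genes, and the median was 0.38. Tagln, an actin-binding gene of contractile cells, had 1799, 5794, 7963, 11786 and 13301, higher at each step and 7.39-fold higher at day 15 than at day 2. Cdkn2b, a cell cycle inhibitor gene, was 7.66-fold higher, the matrix gene Postn 15.4-fold, and Bhlhe40, also known to respond to low oxygen, 4.88-fold, with 2321 on day 15 against 589 on day 12. Prg4, lubricin, was below the floor on day 2 and had 357, 123, 106 and 660 afterwards. It was lower on days 9 and 12 than on days 6 and 15 but, unlike Tgfbi, lowest on day 2. The 3 lower genes were Smad7, Pmepa1 at 3.51-fold and Klf10 at 2.17-fold. Pmepa1 and Klf10 were chosen for mention after their values were seen. Both were already low on day 6, Pmepa1 with 816 on day 6 against 3176 on day 2. Ccn2, a matricellular gene, had 28278, 27585, 19140, 13594 and 21943, lowest on day 12 like Ltbp1. Days 9 and 12 lay below the other days in both Ccn2 and Ltbp1, as in 13.8% of all measured genes. Trends passed in 0 of 17 (limma), with 7 at an unadjusted p under 0.05 (41.2%, beside 27.1% of all genes). Acta2 and Col1a1 stand in this list and also among the smooth muscle and pericyte markers and the fibroblast markers, so those lists overlap. Genes including Smad7 and Skil stand both here and among the transducers and inhibitors, and Smad7 is counted as lower in each list. Of the 4 measured smooth muscle and pericyte markers, 3 were at least 2-fold higher at day 15. The remaining 1, Cspg4, was 2.31-fold lower, and Myh11 stayed below the floor on every day. Among the 3 higher ones, Acta2 had a log2 difference of 1.71 by its brightest probe set but 0.1 by its other measured one. The part of such cells in the differences of this list was not tested.

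**Figure D4:**
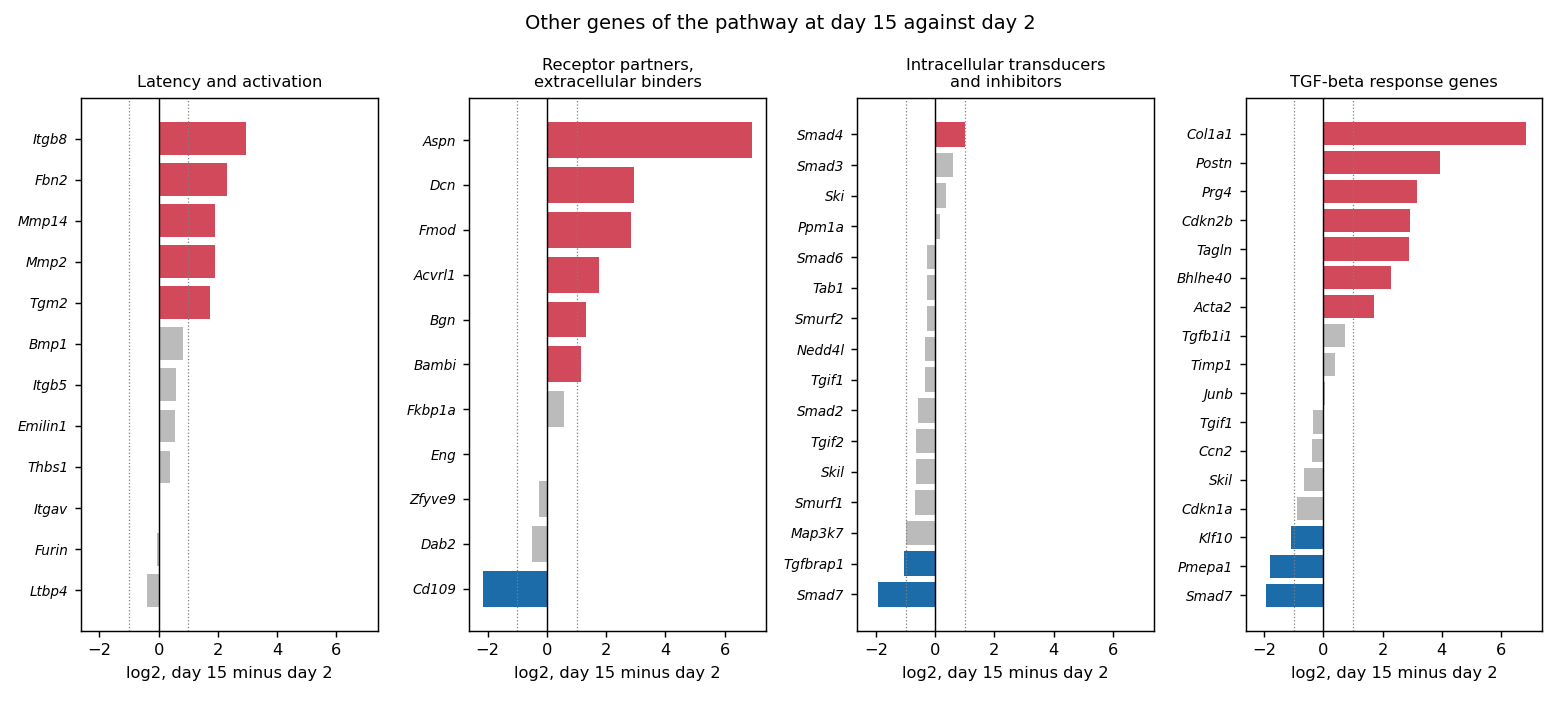
Log2 difference between day 15 and day 2 (horizontal axis) for each measured gene of the 4 other pathway lists, brightest probe set, 1 array per day. Red bars are at least 2-fold higher on day 15, blue bars at least 2-fold lower, and grey bars within 2-fold. The counts are 5 higher and 0 lower of 12, 6 and 1 of 11, 1 and 2 of 16, and 7 and 3 of 17 from left to right. Smad7 stands in both right-hand lists and is counted as lower in each.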

How the data were processed

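RNA of 5 cultures, 1 for each of days 2, 6, 9, 12 and 15, was hybridised to single-colour arrays. The deposited intensities came from MAS5 (the submitters' processing notes name no version). On each of the 5 arrays the mean after trimming 2% at both ends was 500, so a change common to most transcripts is hidden. The table held 45101 probe sets, of which 64 were controls, 34945 carried 1 symbol, 932 several and 9160 none in the platform annotation. Symbols were updated through a RefSeq gene table (34741 updated, 204 kept). The members and lists were chosen with earlier results of these data known.

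Values were floored at 73.1 and log2 was taken. The trend on day was fitted in R 4.3.3 with limma 3.58.1 (two-sided moderated test after lmFit and eBayes, with 3 residual and 2.83 prior degrees of freedom, Benjamini-Hochberg over 11075 genes). In simulated data for the same genes, noise was independent and normal, and only 50 genes for each size of change had a straight slope. The fit recovered 0, 19, 28 and 36 of 50 genes with a total change of 1, 2, 3 and 4 log2 units. Of 87 calls, 4 were false. In the real data 27.1% of genes had an unadjusted limma trend p under 0.05 and courses were not all straight, so these figures may not carry over. The number of arrays limits the precision. Named genes were all members, up to 6 of each list with the largest difference between days 15 and 2, Smad2, Smad3, Smad4, Smad7 and Ccn2, and the 3 closest courses to each of the 3 widest-ranging members. One other gene of the rule is not reported here. Alternatives in scaling, floor, probe-set summary, filter, days compared and arrays left out were run. Other steps used Python 3.11.15, pandas 2.3.3 and numpy 2.4.6, and figures matplotlib 3.10.9.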

Additional observations from a re-analysis of the deposited data

How the results depend on the processing

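Between 3 and 5 members were at least 2-fold higher under the alternatives run, against 4 as reported. The count was 3 with averaged probe sets, and with days 12 and 15 pooled against days 2 and 6 (Tgfbr2 at 0.55). It was also 3 for day 15 against day 6, by Tgfb1 (1.49), Tgfb3 and Ltbp2. For day 15 against day 12, a comparison not planned beforehand, the 3 were Ltbp1, Ltbp2 and Tgfbi. The members behind the count thus changed with the days compared. Averaging put Tgfbr2 at 0.67, Tgfb2 at 0.00 and Tgfbr3 at 1.62 on the log2 scale. Centring arrays on their medians shifted the median of all genes by 0.14 and added Tgfbi at 1.13. The count at least 2-fold lower was 1 in place of 0 with each probe set as a row of its own (Ltbp3, an alternative chosen after seeing the data), for day 15 against day 6 (Tgfb2, -1.68) and for day 12 against day 2 (Ltbp1, -1.40). Day 15 against day 6 reversed Tgfbr2, at -0.81, and gave 0.24 for Tgfbr3. Rising and falling trends passed in 0 members under every alternative fitted, including leaving out each day in turn, with lowest adjusted p-values in limma between 0.0551 (stricter filter) and 0.269 (without day 2). Over all genes, against 6 rising and 0 falling as reported, trends passed in 66 and 22 with a pseudocount, 119 and 85 with the stricter filter, 12 and 1 with centred arrays, and 0 and 0 with the 60th percentile floor, no filter, single probe sets or any day left out. Slopes that changed sign, none past the threshold, were Tgfbi at -0.004 with averaged probe sets and, with 1 day left out, Tgfb2 (range -0.170 to 0.019), Tgfbr1 (-0.083 to 0.040), Tgfbr2 (-0.084 to 0.183) and Tgfbi (-0.090 to 0.049). The Tgfbr2 and a Tgfbi reversal came without day 2 (-0.084 and -0.015), the others without day 15. The causes were not tested. No paired analysis was possible because each day has 1 array.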
